A study of Mus musculus with 6 samples.

Results

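Myosin II is the motor that pulls on actin filaments in muscle and non-muscle cells, and 10 genes of its non-muscle and smooth muscle forms are described here in mouse embryonic fibroblasts (MEFs) with and without Rnf40. The genes were chosen by name, for their roles in the motor and its regulation, with earlier results of these data known. They are the heavy chains Myh9, Myh10 and Myh11, the regulatory light chains Myl9, Myl12a and Myl12b, the essential light chain Myl6, the light chain kinase Mylk and the phosphatase targeting subunits Ppp1r12a and Ppp1r12b. All 10 were among the 29955 genes of the deposited table, 9 of them under the same symbol, and Myl12a under its older symbol 2900073G15Rik. RNF40 is an E3 ligase that places a single ubiquitin on histone H2B, and the comparison asks how mRNA levels differ in MEFs without it. RNA was sequenced from 3 libraries of Rnf40+/+ MEFs and 3 libraries of Rnf40-/- MEFs at passage 3. The paper derived its MEFs from embryos homozygous for an Rnf40 allele with loxP sites around exons 3 and 4. These embryos also carried a tamoxifen-inducible Cre recombinase expressed in all tissues from Rosa26 (CreERT2). No other origin is named for the Rnf40+/+ MEFs. The Rnf40-/- cells had received 250 nM 4-hydroxytamoxifen (4-OHT) for 5 days and were then kept for 3 days without it. Whether 4-OHT was also given to the sequenced Rnf40+/+ cells is not given in the sources used here. Within these libraries the deletion and the treatment therefore cannot be told apart. Nothing states that the 3 libraries of a genotype came from separate embryos, and the p-values therefore measure only the spread between these libraries, which may be technical.

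A myosin II molecule has a pair of heavy chains, which carry the motor heads and the coiled-coil tail, and each head holds an essential and a regulatory light chain. Phosphorylation of the regulatory light chain by myosin light chain kinase, a calmodulin-dependent enzyme, or by other kinases switches the motor on and lets it assemble into filaments. Myosin phosphatase, which consists of a protein phosphatase 1 catalytic subunit and a targeting subunit, removes the phosphate. In fibroblasts the motor drives stress fibre contraction, migration and the cleavage of dividing cells, and the smooth muscle forms are known from vessel and gut wall and from contractile fibroblasts.

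The regulatory light chains are near copies of each other, which bears on how well their reads can be told apart, and the starts of their coding sequences are shown for that reason. Each coding sequence is 519 nucleotides long. Bases 1 to 75 from the start codon are printed 5′ to 3′ from the transcripts annotated on mm9, and capitals mark the positions where Myl12a or Myl12b differs from Myl9.
Myl9: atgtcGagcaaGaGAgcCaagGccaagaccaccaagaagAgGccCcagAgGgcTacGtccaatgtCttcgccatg
Myl12a: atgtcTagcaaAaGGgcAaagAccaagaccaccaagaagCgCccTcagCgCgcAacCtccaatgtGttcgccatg
Myl12b: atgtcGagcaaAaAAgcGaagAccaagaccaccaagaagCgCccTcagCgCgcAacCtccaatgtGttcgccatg
Over the whole coding sequence Myl12a and Myl12b were 96.5% identical, with 18 differing bases. Myl9 was 85.5% identical to Myl12a and 86.3% identical to Myl12b. None of the 50-base windows of the Myl9 transcript occurred in a protein-coding transcript of another gene, whereas 10.2% of the windows of Myl12a and 15.9% of those of Myl12b occurred in the other of the pair. The division of reads between Myl12a and Myl12b is therefore uncertain at least to that extent, while Myl9 had no such shared window. Matches with differing bases and matches to non-coding transcripts were not searched.

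The deposited values are reads scaled by a size factor for each library and are called normalized counts. The Rnf40+/+ libraries held 17053436 to 26344170 reads on genes and the Rnf40-/- libraries 18115481 to 20495627. A total of 16378 genes had enough reads for a test, and all 10 myosin II genes were among them with at least 125 reads in every library. Rnf40 itself was at 1278, 1195 and 1096 normalized counts in Rnf40+/+ and at 439, 519 and 487 in Rnf40-/- libraries, so that 40.5% of the level was left. Reads in exons outside the deleted pair count toward this level. Of the fibroblast markers, Col1a2 was abundant, with 107178 to 128919 normalized counts in Rnf40+/+ and 23757.5 to 24565 in Rnf40-/- libraries (log2 fold change -2.26). This was the largest fall among the 9 listed fibroblast markers, of which 7 were lower, 0 were higher and 2 were not called. Col1a1 and Vim had log2 fold changes of -0.80 and -0.26, and that of Dcn, which was not called, was 0.20. Lum was low, with 87.2 to 248 in Rnf40+/+ libraries. Of the skeletal muscle markers, Myod1, which defines that tissue, had no read in any library, while Acta1 was at 1592 to 4449 in Rnf40+/+ libraries.

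Of the 10 myosin II genes, 8 were lower in Rnf40-/- MEFs, 0 were higher and 2 did not pass the test (limma on log2(normalized count + 1), Benjamini-Hochberg adjusted p under 0.05 over all genes tested). All heavy chains, all regulatory light chains, the essential light chain and the kinase were lower, and the phosphatase targeting subunits were not called. The count of higher genes was also 0 at an unadjusted p under 0.05 and by edgeR and DESeq2. Among all genes tested 24.1% were lower and 23.3% were higher by the same test, so a share of 80% lower, for genes chosen with results known, stands beside 24.1%. Over the 10 genes the log2 fold changes had a median of -0.68, against -0.0035 over all genes tested. The 8 lower genes also had no overlap between the genotypes, in the lower direction, which held for 28.7% of all genes tested. With the criteria of the study (mean above 15, unadjusted p under 0.05 and a log2 fold change beyond 1), 3 genes were lower, namely Myl9, Myh11 and Mylk, and 5.70% of all genes tested were lower by these criteria. In libraries of bulk RNA, fewer cells of a kind and less RNA per cell cannot be told apart.

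**Figure D1:**
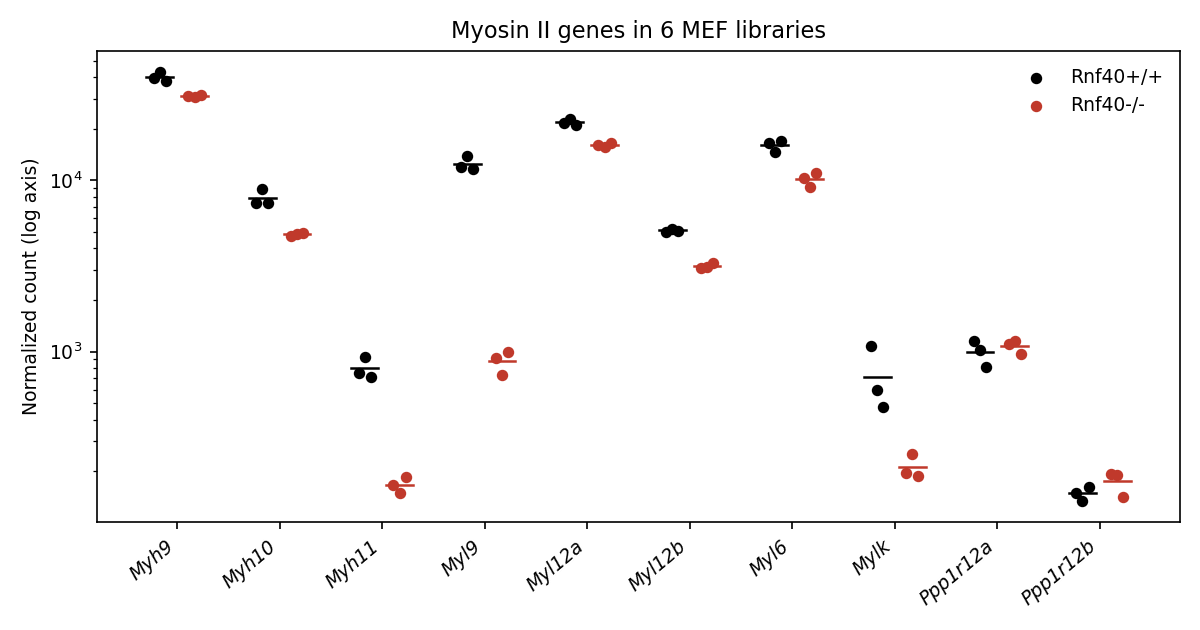
Normalized counts (log axis) of the 10 myosin II genes in each library, with black points for Rnf40+/+, red points for Rnf40-/- and a line at the mean of 3 libraries. The red points lie below the black points for 8 genes, furthest for Myl9 at 7.01% of the Rnf40+/+ mean, and the points of Ppp1r12a and Ppp1r12b overlap.

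Among the heavy chains the decrease was small for Myh9, larger for Myh10 and largest for Myh11. Myh9 encodes non-muscle myosin heavy chain IIA and its gene spans 77591017 to 77672605 of chromosome 15 (mm9, minus strand), with 41 exons in its longest transcript. It had 39590.2, 42836 and 37921 normalized counts in Rnf40+/+ and 31109, 30867 and 31701 in Rnf40-/- libraries. The 3 Rnf40-/- libraries lay close together and below every Rnf40+/+ library. This was a log2 fold change of -0.36 (standard error, SE, 0.08; limma adjusted p = 0.00200), which left 77.8% of the Rnf40+/+ mean.

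Myh10 encodes non-muscle myosin heavy chain IIB and its gene spans 68505061 to 68630134 of chromosome 11 (plus strand). It was at 7364, 8904 and 7361 normalized counts in Rnf40+/+ and at 4702, 4884 and 4935 in Rnf40-/- libraries. The second Rnf40+/+ library was the highest, and the genotypes did not overlap. This gave a log2 fold change of -0.70 (SE 0.08, limma adjusted p = 2.07e-05).

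Myh11, the smooth muscle myosin heavy chain, spans 14194620 to 14291501 of chromosome 16 (minus strand). Its normalized counts were 755, 932 and 709 in Rnf40+/+ and 166, 149 and 185 in Rnf40-/- libraries. The lowest Rnf40+/+ library was thus far above the highest Rnf40-/- library. This was a log2 fold change of -2.25 (SE 0.12, limma adjusted p = 8.36e-08), and 20.9% of the level was left.

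The heavy chains did not fall in step. The log2 ratio of Myh11 to Myh9 within a library was -5.71, -5.52 and -5.74 in Rnf40+/+ and -7.54, -7.68 and -7.41 in Rnf40-/- libraries. This difference of -1.89 between the genotypes compares with an SD between replicates of 0.12 in Rnf40+/+ and 0.14 in Rnf40-/- libraries. The ratio of Myh10 to Myh9 differed by -0.34 on the log2 scale and that of Myh11 to Myh10 by -1.55, and for all 3 ratios the genotypes did not overlap. A two-sided exact permutation test of 3 libraries against 3 cannot go below p = 0.1, and each of these ratios reached that smallest value. In all, 20 ratios, shares and sums were compared by exact permutation tests, 18 of them were at p = 0.1 (Benjamini-Hochberg adjusted p = 0.111), and none could reach 0.05.

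The regulatory light chains showed the widest spread of changes within 1 family. Myl9, the form abundant in smooth muscle, spans 156601156 to 156607394 of chromosome 2 (mm9, plus strand) and has 4 exons in its longest transcript. Its normalized counts were 12008, 13884 and 11698 in Rnf40+/+ and 912, 729.5 and 994 in Rnf40-/- libraries. No other myosin II gene had genotypes so far apart. Myl9 was already known from the paper, which examined it as an individual RNF40-dependent gene by quantitative PCR and chromatin immunoprecipitation. There, re-expressed wild-type RNF40 rescued Myl9 expression after 4-OHT, and a form lacking the RING finger did not. In Rnf40-/- MEFs 7.01% was left, a log2 fold change of -3.84 (SE 0.11, limma adjusted p = 6.47e-10), with rank 6 from the lowest among the 16378 genes tested.

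Myl12a and Myl12b encode the widely expressed non-muscle forms and are neighbours on the minus strand of chromosome 17, with Myl12b from 71323260 to 71340127, Myl12a from 71342996 to 71352218 and 2868 bases between them. Myl12a was at 21706.5, 22759 and 21077 normalized counts in Rnf40+/+ and at 16079, 15611 and 16602 in Rnf40-/- libraries (log2 fold change -0.44, SE 0.07, limma adjusted p = 0.000208). Myl12b was at 5003, 5199 and 5085 normalized counts in Rnf40+/+ and at 3089.6, 3122 and 3282 in Rnf40-/- libraries (log2 fold change -0.69, SE 0.06, limma adjusted p = 2.60e-06). Both were lower without overlap, and both kept most of their level, 73.7% for Myl12a and 62.1% for Myl12b. Within a library the log2 ratio of Myl9 to Myl12a was lower by 3.40 on average in Rnf40-/- than in Rnf40+/+ libraries, and that of Myl12b to Myl12a changed by -0.25. Reads that fit both Myl12a and Myl12b bear on the last value, and their part in it was not tested.

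**Figure D2:**
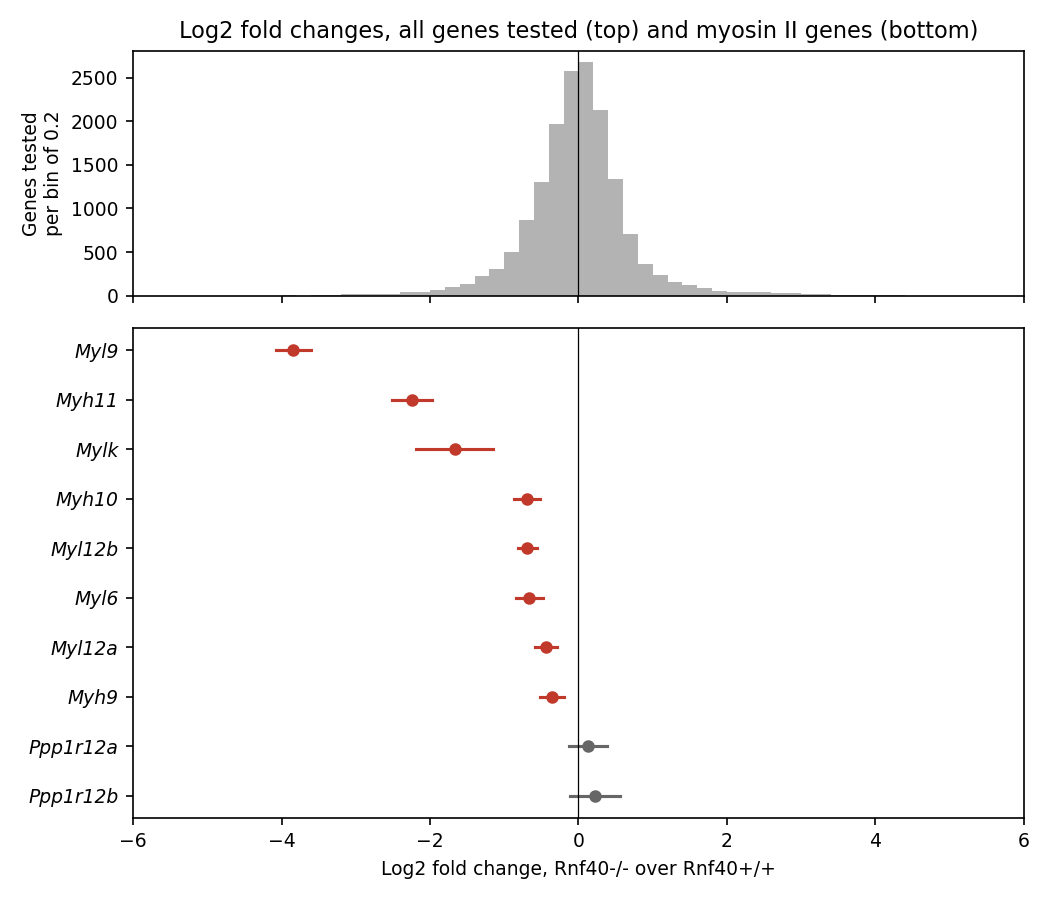
Log2 fold changes of Rnf40-/- over Rnf40+/+, with the number of genes per bin of 0.2 over all 16378 genes tested in the top panel and the 10 myosin II genes below, each with a point for the estimate and a bar for the 95% interval of limma. Red marks an adjusted p under 0.05, which 8 genes reached, from -0.36 for Myh9 to -3.84 for Myl9, and the intervals of Ppp1r12a and Ppp1r12b include 0.

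Divided by the length of the longest annotated transcript, the levels show which chain supplied most of the mRNA. In Rnf40+/+ MEFs the level was highest for Myl6 (24157 normalized counts per kilobase), followed by Myl12a (11279), Myl9 (11108), Myh9 (5397), Myl12b (4067), Myh10 (1011), Ppp1r12a (292), Myh11 (120.4), Mylk (91.4) and Ppp1r12b (16.8). The libraries of Myl12a and Myl9 overlapped, as did those of Myh11 and Mylk, and the other neighbours in this order did not. In Rnf40-/- MEFs Myl9 stood in the fifth place with 779 normalized counts per kilobase, below Myl12b (2525) and just above Myh10 (621). Mylk (27.1) and Myh11 (25.2) came after Ppp1r12a (317) and overlapped each other, and Ppp1r12b (19.8) was last. The top of the order was Myl6 (15266 normalized counts per kilobase), Myl12a (8310) and Myh9 (4201).

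As a share of the 3 regulatory light chains per kilobase, Myl9 made up 41.2%, 43.6% and 41.0% in Rnf40+/+ and 6.98%, 5.78% and 7.30% in Rnf40-/- libraries. By this measure Myl9 and Myl12a had about equal shares in Rnf40+/+ MEFs, and Myl9 was the least abundant form in Rnf40-/- MEFs. With no division by length the mean shares in Rnf40+/+ MEFs were 31.7% for Myl9 and 55.4% for Myl12a, and Myl9 had 4.35% in Rnf40-/- MEFs. The mean fell by 35.2 percentage points, from 41.9% ± 1.48 to 6.69% ± 0.805 (SD, n = 3; exact permutation p = 0.1, the smallest possible). The share of Myl12a went from 42.7% ± 0.897 to 71.6% ± 0.505 and that of Myl12b from 15.4% ± 0.664 to 21.7% ± 0.475 (SD, n = 3), although the levels of both genes fell. The 3 genes together had 26454 ± 1542 normalized counts per kilobase in Rnf40+/+ and 11615 ± 439 in Rnf40-/- MEFs (SD, n = 3), which left 43.9%.

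Among the heavy chains, with Myh14 (non-muscle myosin heavy chain IIC) added as the remaining non-muscle form, Myh9 made up most of the mRNA in both genotypes. Its share was 82.6% ± 0.772 in Rnf40+/+ and 86.6% ± 0.242 in Rnf40-/- MEFs (SD, n = 3). Myh10 had 15.4% ± 0.726 and 12.8% ± 0.262, and Myh11 had 1.84% ± 0.138 and 0.518% ± 0.0490 (SD, n = 3). The genotypes did not overlap for these 3 genes. With the mean length over annotated transcripts in place of the longest, the shares of Myh11 were 0.570% and 0.158%. The share of Myh14 was 0.123% ± 0.110 in Rnf40+/+ and 0.0621% ± 0.0181 in Rnf40-/- MEFs (SD, n = 3; exact permutation p = 0.6). Summed, the heavy chains kept 74.2% of their level, so that the ratio of regulatory light chains to heavy chains per kilobase was 4.04, 4.00 and 4.11 in Rnf40+/+ and 2.40, 2.33 and 2.45 in Rnf40-/- libraries.

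**Figure D3:**
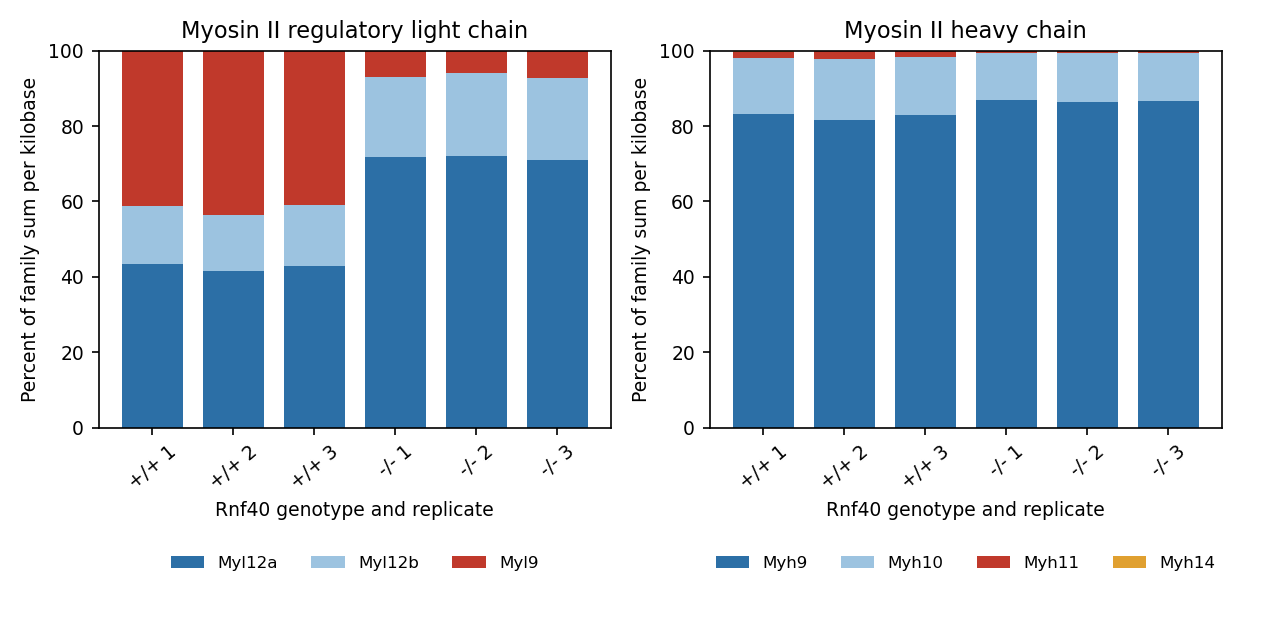
Share of each gene (percent of the family sum of normalized counts per kilobase) in each library, for the regulatory light chains on the left and the heavy chains on the right. Red for Myl9 fills 41.0% to 43.6% of the bars in Rnf40+/+ and 5.78% to 7.30% in Rnf40-/- libraries, Myh9 fills over 80% of every heavy chain bar, and Myh14 is too small to see.

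Myl6 encodes the essential light chain, which stabilises the neck of the motor, and spans 127927916 to 127930931 of chromosome 10 (minus strand). Its normalized counts were 16428, 14720.2 and 17045 in Rnf40+/+ and 10372, 9101 and 10983 in Rnf40-/- libraries. The second library of each genotype was its lowest, and the genotypes did not overlap. This was a log2 fold change of -0.66 (SE 0.08, limma adjusted p = 5.25e-05). Of its 50-base windows 27.8% also occurred in the transcript of another gene, all of them in Gm8894, which is no row of the table. The level of Myl6 is therefore uncertain at least to that extent.

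Mylk, the myosin light chain kinase, spans 34745296 to 35002520 of chromosome 16 (plus strand) and has 32 exons in its longest transcript. Its normalized counts were 1078, 595 and 473 in Rnf40+/+ and 195, 254 and 189 in Rnf40-/- libraries. The first Rnf40+/+ library was far above the other Rnf40+/+ libraries, and these were still above every Rnf40-/- library. This was a log2 fold change of -1.67 (SE 0.24, limma adjusted p = 0.000124), and without the first Rnf40+/+ library it was -1.33 (adjusted p = 1.21e-05). The table does not separate the long and short products of this gene.

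The phosphatase targeting subunits, which bring the catalytic subunit to myosin, were the exception. Ppp1r12a (MYPT1) was at 1152, 1019.8 and 809 normalized counts in Rnf40+/+ and at 1108, 1153 and 969.7 in Rnf40-/- libraries. These ranges overlapped, with the third Rnf40+/+ library below every Rnf40-/- library, and the log2 fold change was 0.13 (95% interval -0.13 to 0.38, adjusted p = 0.399 by limma). Ppp1r12b (MYPT2) was at 149, 135 and 163 in Rnf40+/+ and at 194, 189.9 and 142 in Rnf40-/- libraries, with a log2 fold change of 0.22 (95% interval -0.12 to 0.56, adjusted p = 0.266 by limma). A p that misses the threshold does not show that the levels were equal, and the intervals leave room for a rise of up to 0.56 on the log2 scale. The log2 ratio of Mylk to Ppp1r12a, kinase over phosphatase subunit, was -0.10, -0.78 and -0.77 in Rnf40+/+ and -2.50, -2.18 and -2.35 in Rnf40-/- libraries. It was lower by 1.80 on average in Rnf40-/- MEFs, without overlap (exact permutation p = 0.1, the smallest possible).

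Genes of contractile proteins are known targets of serum response factor (SRF), which binds a motif called the CArG box, and the promoters of the myosin II genes were searched for it. Promoter windows of 300 bases, 250 before and 50 after the transcription start (RefSeq, GRCm38.p6), were found for 9 of the 10 genes, all but Myh11, with 11 windows in total. The motif reads the same on both strands. It was present in 2 of the 11 windows, against 535 of 32851 windows (1.63%) of all genes. These windows belong to Myl9 and to 1 of the 2 annotated starts of Myl6, and the 250 bases before the start are printed 5′ to 3′ on the strand of the gene, with the motif in capitals, because Myl9 and Myl6 carry the match and Myl9 had the lowest fold change.
Myl9, chr2:156775214-156775463, plus strand: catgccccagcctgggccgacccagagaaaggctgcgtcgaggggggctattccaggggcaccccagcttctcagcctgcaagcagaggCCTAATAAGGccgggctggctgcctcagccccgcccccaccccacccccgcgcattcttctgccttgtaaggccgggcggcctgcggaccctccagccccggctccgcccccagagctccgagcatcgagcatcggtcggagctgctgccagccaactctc
Myl6, chr10:128493010-128493259, minus strand: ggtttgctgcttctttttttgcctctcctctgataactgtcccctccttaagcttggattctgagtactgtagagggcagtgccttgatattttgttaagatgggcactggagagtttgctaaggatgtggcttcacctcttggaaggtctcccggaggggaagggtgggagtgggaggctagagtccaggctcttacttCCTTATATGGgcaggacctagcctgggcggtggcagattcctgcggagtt
The motif lies 152 to 161 bases upstream of the start in Myl9 and 41 to 50 bases upstream in Myl6. Myl6 and Myl9 had log2 fold changes of -0.66 and -3.84, and Mylk, Myh9, Myh10, Myl12a and Myl12b fell with no match in these windows. Ppp1r12a and Ppp1r12b, which were not called, had no match either. A match is a description of the letters and no site of binding.

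The other genes of the pathway did not move one way. Of 75 further genes in 7 lists (among them other myosin II chains, other kinases of the regulatory light chain, calmodulin, phosphatase partners and inhibitors, myosin II binding and assembly proteins, and SRF with its coactivators), 59 were tested, 19 were lower and 17 were higher. Their median log2 fold change was 0.04. This is 32.2% lower and 28.8% higher, beside 24.1% and 23.3% of all genes tested. The same shares of all genes stand beside the counts of each list below.

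Of the other myosin II chains, 13 of 19 had too few reads for a test, 1 of 6 tested was lower and 0 were higher. The 13 untested chains, among them the striated muscle heavy chains Myh2, Myh4, Myh6 and Myh7, had means under 15 normalized counts. Myl6b, an essential light chain related to Myl6, was at 514, 157 and 133 normalized counts in Rnf40+/+ and at 77.5, 53.2 and 69.9 in Rnf40-/- libraries (log2 fold change -1.72, adjusted p = 0.00336 by limma). Myh14 was at 104, 30.6 and 21.6 in Rnf40+/+ and at 22.4, 23.0 and 13.2 in Rnf40-/- libraries (log2 fold change -1.08, adjusted p = 0.0906 by limma). In both genes the first Rnf40+/+ library was the highest, and without it the log2 fold changes were -1.12 (adjusted p = 0.000759) for Myl6b and -0.42 (adjusted p = 0.399) for Myh14. Without the third Rnf40+/+ library, by contrast, Myh14 passed the test with a log2 fold change of -1.53 (adjusted p = 0.0123), as it did with DESeq2 (adjusted p = 0.0183).

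The first Rnf40+/+ library also stood apart in single markers of several cell types. Acta1, the skeletal muscle actin, was at 4449 normalized counts there and at 1905 and 1592 in the other Rnf40+/+ libraries, and Des, the intermediate filament protein of muscle, was at 431, 126 and 114 in the 3 Rnf40+/+ libraries. Actc1, the cardiac actin, was at 937 in the first library and at 10.2 and 7.99 in the others. Single markers of other cells were high there too, with 115, 11.2 and 16.0 for the endothelial receptor Tek, 58.5, 1.02 and 9.58 for the epithelial keratin Krt8, and 2670.3, 1275 and 1353 for the neural tubulin Tubb3. The rest of these lists was mixed. Kdr (21.5, 26.5 and 34.3), Krt18 (22.7, 18.4 and 27.9) and Stmn2 (496, 537 and 426) were not highest in the first library, while Pecam1, Krt14 and Sox10 were. What part the transcripts high in the first library had in the values of Mylk, Myl6b and Myh14 was not tested beyond leaving that library out. Without it all 8 myosin II genes remained lower.

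Among the other kinases of the regulatory light chain, 2 of 12 tested were lower (16.7%) and 6 were higher (50%). Of the 6 higher calls, 2 were lost in 4 of the 6 fits that left out 1 library. Mylk3, the cardiac form of the kinase, was low and rose from 7.17, 18.4 and 24.8 to 45.9, 71.0 and 72.7 normalized counts (log2 fold change 1.98, adjusted p = 0.00158 by limma). Mylk2 and Mylk4, the remaining forms, had log2 fold changes of -0.02 (adjusted p = 0.954) and 0.06 (adjusted p = 0.890). Cit, the citron kinase of the cleavage furrow, was at 189.9, 63.2 and 42.3 in Rnf40+/+ and at 8.16, 14.6 and 5.67 in Rnf40-/- libraries (log2 fold change -3.04, adjusted p = 0.000371 by limma), and its log2 fold change was -2.42 without the first Rnf40+/+ library.

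**Figure D4:**
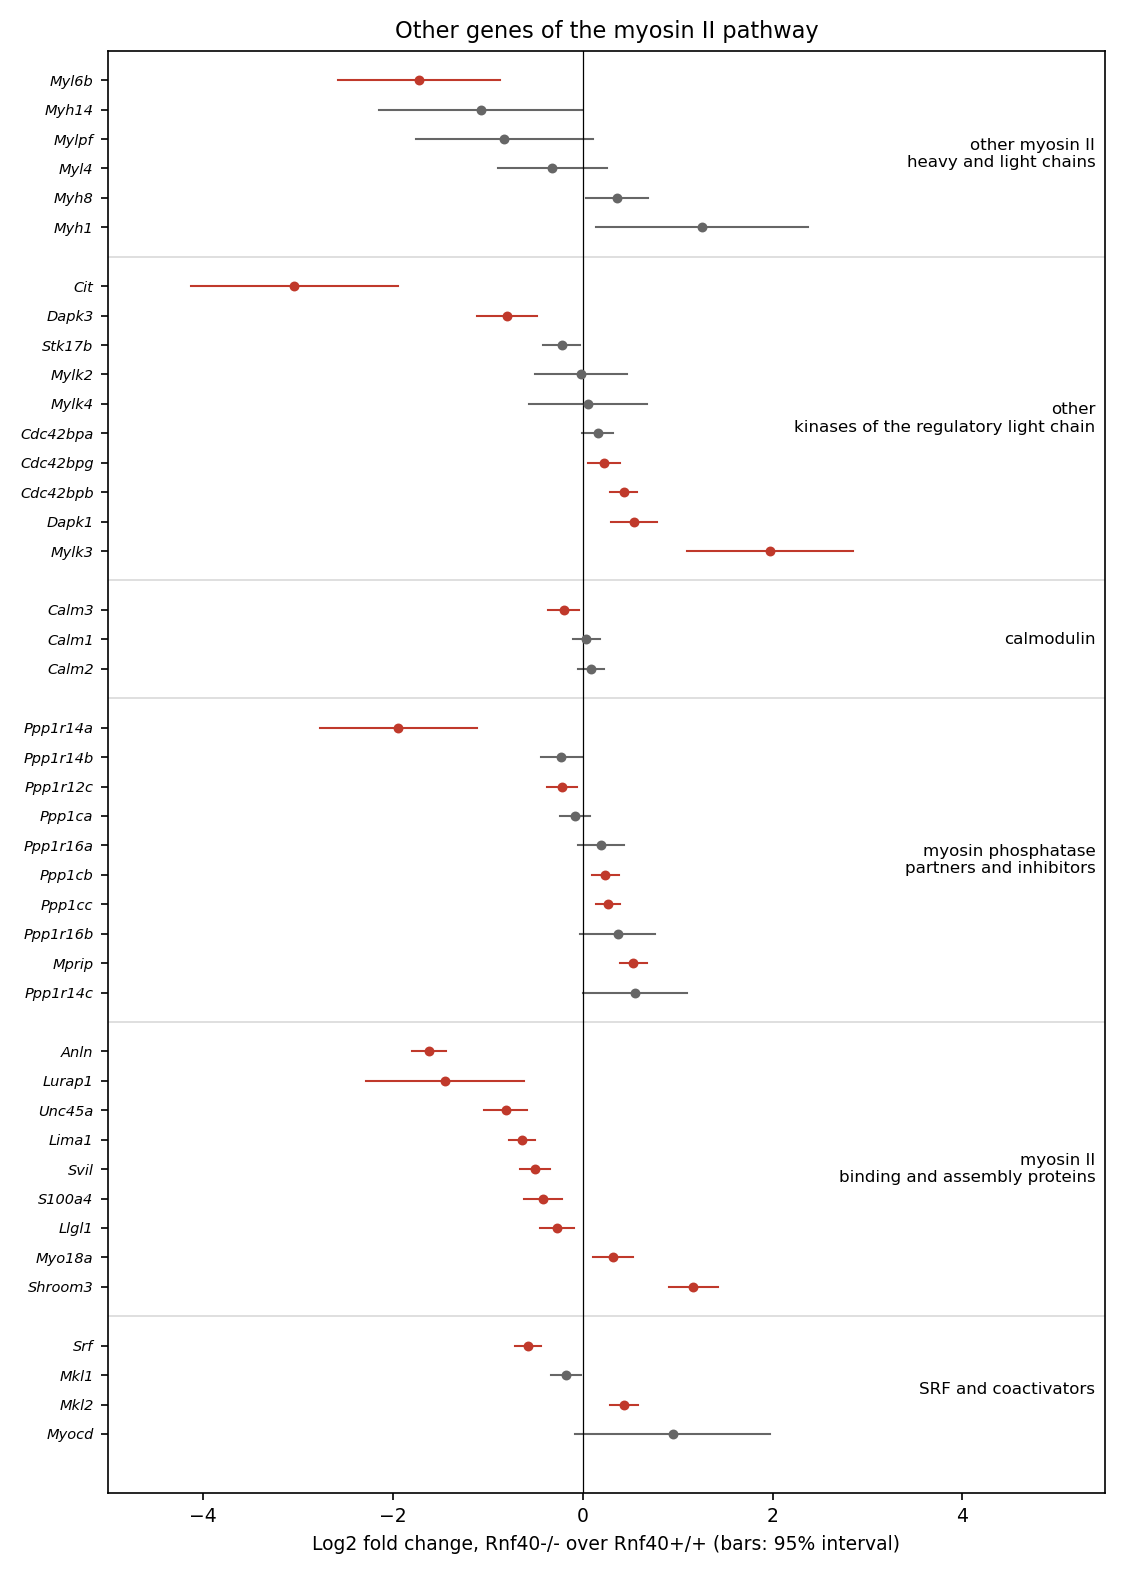
Log2 fold changes of Rnf40-/- over Rnf40+/+ for tested genes of the other pathway lists, grouped by list, with points for the estimates of limma, bars for 95% intervals and red for an adjusted p under 0.05. Lower and higher genes occur side by side, with Cit lowest at -3.04 and Mylk3 highest at 1.98.

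For the phosphatase, 2 of 10 tested partners and inhibitors were lower (20%) and 3 were higher (30%), near the 24.1% and 23.3% of all genes tested. Ppp1cb, the catalytic subunit of myosin phosphatase, had a log2 fold change of 0.24 (adjusted p = 0.0104 by limma). Ppp1r12c, the paralog of the targeting subunits, had a log2 fold change of -0.22 (adjusted p = 0.0239 by limma), and in 4 of the 6 fits that left out 1 library the adjusted p was between 0.0578 and 0.0935. Ppp1r14a (CPI-17), an inhibitor of the phosphatase known from smooth muscle, was at 49.0, 56.1 and 141 normalized counts in Rnf40+/+ and at 24.5, 14.6 and 17 in Rnf40-/- libraries (log2 fold change -1.94, adjusted p = 0.00123 by limma). Of the calmodulin genes 1 of 3 was lower and 0 were higher. The lower gene, Calm3, named after its values were seen, had a log2 fold change of -0.20 (limma adjusted p = 0.0473), and the call was lost in 4 of the 6 fits that left out 1 library and with no filter on low values (adjusted p = 0.0656).

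The binding and assembly proteins were the other list with mostly lower genes, 7 of 9 (77.8%), with 2 higher (22.2%). In each direction 1 call was lost in 2 of the 6 fits that left out 1 library. Anln (anillin), a scaffold of the cleavage furrow, was at 906, 979 and 942 normalized counts in Rnf40+/+ and at 315, 305 and 299 in Rnf40-/- libraries (log2 fold change -1.62, adjusted p = 4.53e-08 by limma). Lurap1, an adaptor for myosin activation, is listed under its older symbol 1520402A15Rik and had few reads, with 34.6, 26.5 and 27.9 normalized counts in Rnf40+/+ and 10.2, 6.26 and 16.1 in Rnf40-/- libraries (log2 fold change -1.45, limma adjusted p = 0.00802). Shroom3, an actin-binding protein of apical constriction, was higher with a log2 fold change of 1.17 (adjusted p = 8.50e-06 by limma). Of SRF and its coactivators 1 of 4 was lower and 1 was higher. Srf itself, named here after its values were seen, was at 1673, 1637 and 1643 normalized counts in Rnf40+/+ and at 1105, 1091 and 1127 in Rnf40-/- libraries (log2 fold change -0.58, limma adjusted p = 1.67e-05). The higher gene was the coactivator Mkl2 (log2 fold change 0.43, limma adjusted p = 0.000257). Mkl1 and Myocd, with log2 fold changes of -0.18 and 0.95, were not called by this test. These coactivators were also named after their values were seen.

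For the 3 genes with the largest changes, the genes with the most similar profile over the 6 libraries were sought by the distance between log2 profiles centred on their own means, which is a description. The nearest genes to Myl9 were Actg2 (distance 0.28), Cnn1 (0.41), Fam150a (0.45), Pbk (0.71) and Cenpa (0.91). Actg2 is the enteric smooth muscle actin and Cnn1 is calponin, an actin-binding protein of smooth muscle, and their log2 fold changes were -3.84 and -3.99. Those of Fam150a, Pbk and Cenpa were -3.63, -3.72 and -3.15. The distance depends mostly on the difference between genotypes, so near genes have similar fold changes by construction. The nearest genes to Myh11 were Tpm2 (0.17), Acta2 (0.22), Nnat (0.27), 4930429B21Rik (0.29) and Mcm10 (0.29). Those of Mylk were Dscc1 (0.21), Igfbp4 (0.42), Pabpc1l (0.57), Pygl (0.58) and Kif11 (0.61).

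Markers of smooth muscle were lower as well, whereas 2 of the 10 myosin II genes were not. All 8 listed markers (Acta2, Cnn1, Tagln, Actg2, Smtn, Des, Lmod1 and Synpo2) were lower in Rnf40-/- MEFs, beside 24.1% of all genes tested. Their median log2 fold change was -2.57, against -0.68 for the 10 myosin II genes. Their summed level was 159050 to 174213 normalized counts in Rnf40+/+ and 25161 to 30389.8 in Rnf40-/- libraries. The fibroblast list fell as well, with 7 of 9 genes lower (77.8%) and a summed level of 354316 to 413828 in Rnf40+/+ and 185357 to 199435 in Rnf40-/- libraries. The smooth muscle markers are also expressed by contractile fibroblasts, and their part in the values of Myl9, Myh11 and Mylk was not tested.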

How the data were processed

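The deposited table holds 1 signal per gene and library. The authors mapped the RNA-seq reads (strand-specific kit) to the mouse reference transcriptome (mm9) and divided the counts by size factors of DESeq, and the submitters' processing notes name Bowtie2 (version 2.1.0) and DESeq (version 1.14.0). The counting tool, and whether it used strand, are not given in the sources used here. Values above 0 were multiples of a smallest step in every library (100% within 0.01 reads), and this step gave back the reads. A gene with 3 reads had a normalized count of 2.40 to 3.58 depending on the library. The p-values, intervals and floors cover these libraries and counting error only. No 2 libraries agreed within sampling noise (chi-square per gene 5.33 to 28.8 within and 75.5 to 115.9 between genotypes), so each counted as 1 sample.

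The design allowed for counts or normalized values, and as the table holds normalized values, limma (version 3.58.1; lmFit, eBayes with trend) on log2(value + 1) was the test, with genotype as the only term. For genes with few reads the added 1 makes fold changes smaller. filterByExpr of edgeR (version 4.0.16) on the recovered reads left 16378 genes, and p-values were adjusted after Benjamini-Hochberg over these. Scripts were tested on simulated data. Single values were compared with two-sided exact permutation tests in Python (version 3.11.15) with scipy (version 1.17.1). Lengths, windows of 50 bases and coding sequences came from annotated transcripts on mm9, and promoters from RefSeq (GRCm38.p6), whose coordinates were not mixed. The 10 genes and all lists were chosen with earlier results of these data known, and no list was tested as a set. All 10 genes were named. Of the other lists the paralogs of these genes and relatives of their regulators, and genes with an adjusted p under 0.05 and a log2 fold change beyond 1 were named, except some that are not reported here, with the 5 nearest profiles for myosin II genes of that size. Alternatives were edgeR with TMM, DESeq2 (version 1.42.0), upper-quartile scaling, other filters and pseudocounts, the study's criteria, other lengths, a replicate block and leaving out each library.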

Additional observations from a re-analysis of the deposited data

How the results depend on the processing

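All 14 alternative fits kept the direction and the call of the 8 lower genes, and 8 of the 10 genes were lower and 0 higher in every fit but that with the study's criteria (mean, unadjusted p and fold), by which 3 were lower. By these criteria 9 of the other pathway genes were lower and 2 higher, and 934 of all genes were lower and 696 higher. No scaling moved the median log2 fold change of all genes by over 0.1. Leaving out 1 library at a time gave 8 to 8 lower and 0 to 0 higher myosin II genes, 16 to 20 lower and 15 to 18 higher pathway genes, and 3342 to 3896 lower and 3051 to 3817 higher genes of all tested. The direction of Ppp1r12a, which was not called, reversed to -0.013 (log2, adjusted p = 0.919 by limma) without the third Rnf40+/+ library, in which it was lowest, and leaving out 1 library gave a range from -0.013 to 0.24. The share of Myl9 among the regulatory light chains changed by -35.7 to -34.4 percentage points when 1 library was left out and by -27.3 with no division by length. The share of Myh11 among the heavy chains changed by -1.37 to -1.24 percentage points when 1 library was left out, by -1.17 with no division by length and by -0.41 with the mean length over annotated transcripts, and that of Myh10 changed by -2.97 to -2.25 when 1 library was left out. Division by length sets these sizes by construction. With the replicate number as a block, 8 myosin II genes were lower and 0 higher, 23 pathway genes lower and 18 higher, and 4196 of all genes lower and 4021 higher. Same-numbered libraries did not deviate together (correlations -0.0153, 0.0257 and 0.0224). This cannot exclude a source shared by same-numbered libraries, because other differences between libraries may outweigh it. Ppp1r12b had 125 to 204 reads in a library and Ppp1r12a 965 to 1105, and whether depth or the number of libraries limits their calls was not tested.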

Other observations

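The marker lists of smooth muscle and of other cell types had lower summed levels than the fibroblast list. Single genes such as Lyz2 and Acta2 nevertheless exceeded some fibroblast markers. In Rnf40+/+ libraries the mean of Acta2 was 104533 normalized counts, above every listed fibroblast marker but Col1a2 (116406). In Rnf40-/- libraries the mean of Acta2 was 20661. Beside the counts that follow stand 24.1% lower and 23.3% higher among all genes tested. Of 6 tested endothelial genes 3 were higher and 1 was lower in Rnf40-/- MEFs, with a summed level of 157 to 287 normalized counts in Rnf40+/+ and 244 to 353 in Rnf40-/- libraries. Of 8 macrophage genes 4 were lower and 1 was higher, with a summed level of 5188 to 9441 in Rnf40+/+ and 3254 to 3613 in Rnf40-/- libraries. Of 3 tested skeletal muscle genes 2 were lower (summed level 1648 to 4529 against 438 to 495), and of 3 tested cardiac genes 1 was lower (134 to 1063 against 127 to 163). The 1063 was the first Rnf40+/+ library, through Actc1, and the other Rnf40+/+ libraries summed to 134 and 164 in the cardiac list and to 1648 and 1949 in the skeletal muscle list. Epithelial genes, of which 1 of 4 tested was higher, summed to 40.8 to 109.9 and 59.5 to 83.6 normalized counts, and neural genes, of which 1 of 5 tested was higher, to 2072 to 3448 and 2245 to 2468. The myosin II genes summed to 102341 to 110983 normalized counts in Rnf40+/+ and 66059.6 to 69983 in Rnf40-/- libraries.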
